A study of Mus musculus with 16 samples.

Results

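The genes described here encode the constitutive proteasome, its activators, its inhibitor and the chaperones that assemble it, measured in mouse bone marrow-derived macrophages given dexamethasone or vehicle. Members were the protein-coding genes in GENCODE M21 whose symbol starts with Psma, Psmb, Psmc, Psmd, Psme, Psmf or Psmg followed by a digit, without the 3 immunoproteasome genes Psmb8, Psmb9 and Psmb10. A member also needed at least 1 FPKM (fragments per kilobase of transcript, normalized for sequencing depth) in at least 4 of the 16 libraries. This gave 45 members among the 11654 genes tested. Of 51 symbols that matched, 47 were protein coding, and 2 of these did not reach the level: Psma8, an alpha subunit of the testis, with a highest value of 1.26 FPKM, and Psmb11, the beta subunit of the thymus, with a highest value of 0.0121 FPKM. The lowest members inside the limit were Psmg3, at 1.77 to 2.87 FPKM over the 16 libraries, and Psmc3ip, at 2.54 to 4.62 FPKM. Psmc3ip matches by name alone: it encodes a partner of PSMC3 in meiotic recombination and is no proteasome gene.

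The proteasome is the barrel-shaped protease that degrades ubiquitin-tagged proteins. Its 20S core has outer rings of alpha subunits, which gate the channel, and inner rings of beta subunits, of which PSMB6, PSMB7 and PSMB5 carry the caspase-like, trypsin-like and chymotrypsin-like active sites. The 19S cap binds substrates, deubiquitinates them in its lid and unfolds them with the ATPase ring of its base. The 11S activators, PSME1 with PSME2 or PSME3 alone, and the large activator PSME4 open the core without ATP. In macrophages, PSME1, PSME2 and the immunoproteasome subunits are known as interferon-induced genes that serve antigen processing.

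All cells came from the FVB/N strain and were grown from total marrow for 5 to 7 days in medium conditioned by L929 fibroblasts. The 4 groups held 4 libraries each: labelled FOXO3-/- with 100 nM dexamethasone, a synthetic glucocorticoid, for 24 h (KO-dex); labelled FOXO3-/- with DMSO vehicle (KO-vehicle); wild type with dexamethasone (WT-dex); and wild type with vehicle (WT-vehicle). Per its title, the series asked how FOXO3, a forkhead transcription factor, affects signalling through the glucocorticoid receptor. Libraries are named below by group and replicate number. No label tells if replicates are different mice or dishes. The p-values thus rest on library-to-library spread alone, and that spread may be technical.

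Foxo3 itself did not separate the genotypes. It averaged 24.5 ± 1.44 FPKM in KO-dex and 23.2 ± 1.07 FPKM in WT-dex libraries (SD, n = 4 each; exact two-sided permutation test, p = 0.171). Without dexamethasone it averaged 23.8 ± 0.635 FPKM in KO-vehicle and 24.7 ± 1.72 FPKM in WT-vehicle libraries (exact permutation p = 0.371; the smallest p possible is 0.0286). The labels do not describe the allele, and every genotype direction below rests on the labels alone. All 10 macrophage markers were among the tested genes and summed to between 10600 and 17200 FPKM per library. Stromal markers, with Col1a1 among them, summed to 7.51 to 99.9 FPKM in KO-dex, 3.38 to 434 in KO-vehicle, 74 to 1220 in WT-dex and 31.1 to 606 FPKM in WT-vehicle libraries. KO-vehicle 4 was the stromal-rich library of its group, while WT-dex 4 and WT-vehicle 3 were the stromal-poor ones of theirs. The lymphocyte markers stayed under 1 FPKM in every library, as did the erythroid ones, of which Hba-a1 was at 0. Of the 6 neutrophil markers, 4 stayed under 1 FPKM in every library, with Ly6g at 0, and 1 was among the tested genes. The neutrophil markers summed to 0.53 to 1.97 FPKM in KO-dex and 0.714 to 4.11 FPKM in KO-vehicle libraries. In wild type they summed to 1.3 to 2.63 FPKM with dexamethasone and 2.1 to 4.08 FPKM with vehicle. Recovered reads on genes numbered 16886746 to 20584578 per library, and each member rested on 81 to 6416 of them.

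In macrophages labelled knockout, dexamethasone lowered most of the proteasome genes. Of the 45 members, 31 fell and 1 rose (limma on log2(FPKM + 1), Benjamini-Hochberg adjusted p under 0.05 over all genes tested). That is 68.9% of members lower, where 24.1% of all genes tested were called lower and 15% higher (39.1% in either direction). In wild-type macrophages, 24 members fell and 2 rose, or 53.3% lower, where 18.2% of all genes were called lower and 11.9% higher (30.1% in either direction). The median log2 difference of the members was -0.33 in the knockout-labelled cells, against -0.055 over all genes, and -0.20 in wild type, against -0.018 over all genes. The groups of 4 did not overlap for 32 members lower and 1 higher in the knockout-labelled cells, where 23.9% of all genes were lower and 16.6% higher without overlap. In wild type, this held for 21 members lower and 1 higher, where the shares of all genes were 16.5% and 10.8%.

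Both genotypes were called lower for 21 members and higher for 1. A further 10 members were called lower in the knockout-labelled cells alone, 3 were called lower and 1 higher in wild type alone, and 9 were called in neither. Across the 45 genes, the log2 differences of the 2 genotypes had a Spearman rho of 0.84, given as a description since genes are not independent replicates. How these calls move with the scaling can be given once. When reads recovered from the FPKM were scaled to their own totals instead of the deposited denominators, the median of all genes in the knockout-labelled comparison was 0.118, in place of -0.055. The members then counted 16 lower and 6 higher, where 14.8% of all genes were called lower and 28.2% higher, and their median was -0.17. In wild type this scaling gave 16 members lower and 2 higher, where 13.7% of all genes were called lower and 17.2% higher. The share of higher calls over all genes was 38.4% in the knockout-labelled comparison, against 48.4% under median-ratio scaling, 51.1% under quantile normalization and 65.5% with the reads scaled to their totals. In wild type it was 39.5%, against 55.7% with the reads scaled to their totals. In bulk RNA, fewer cells of a type and less RNA per cell cannot be told apart.

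**Figure D1:**
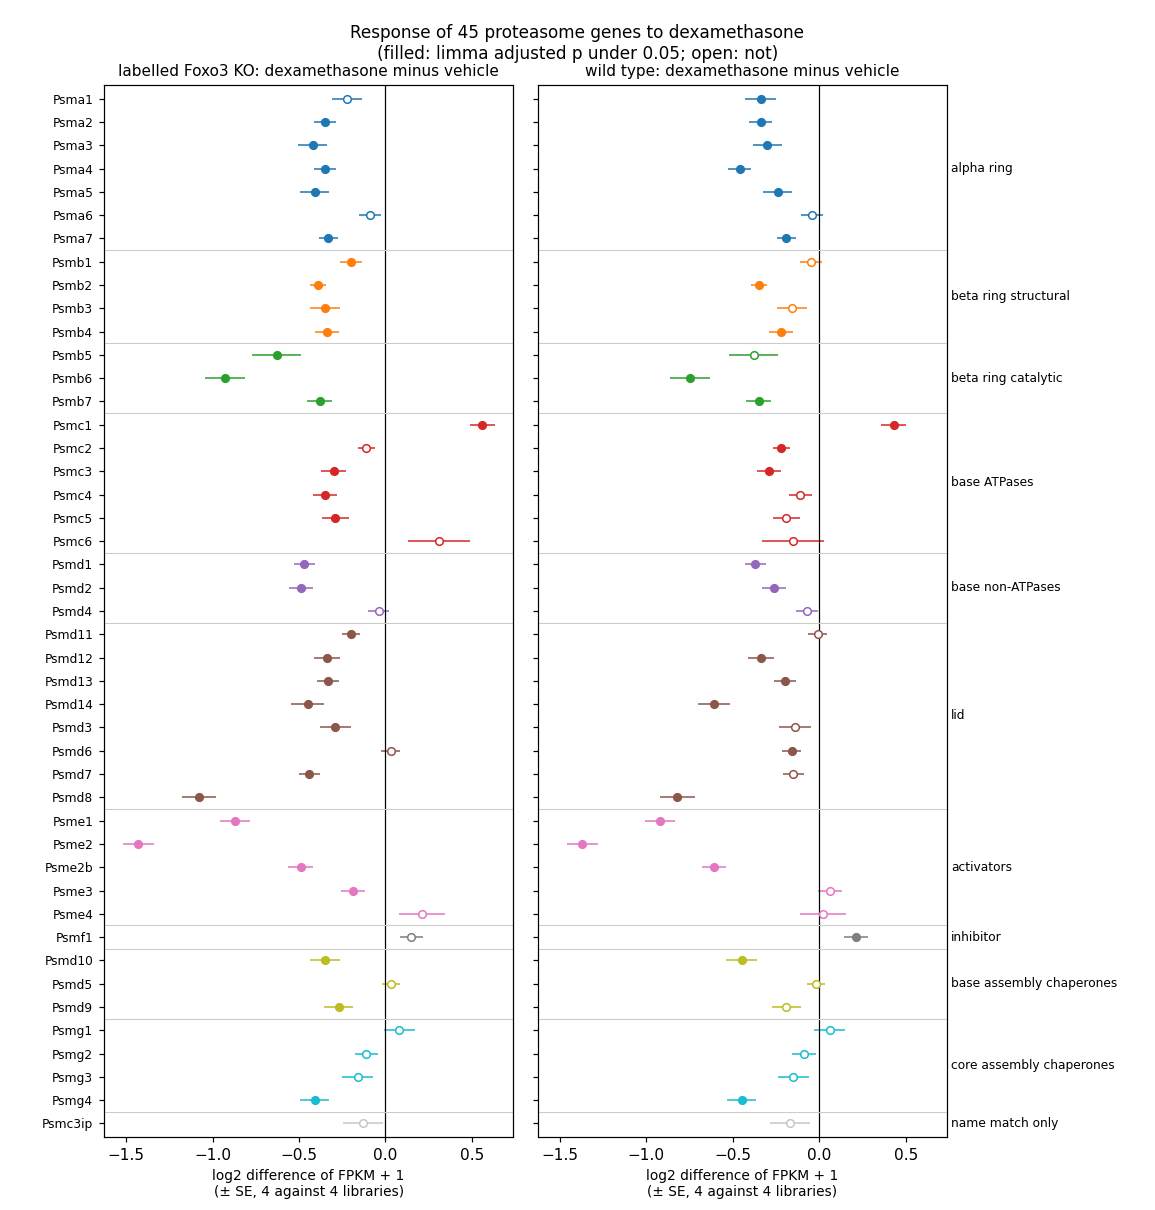
Log2 difference of FPKM + 1, dexamethasone minus vehicle (horizontal axis, ± SE), for each of the 45 members by role, in knockout-labelled cells (left) and wild-type cells (right). Filled points passed an adjusted p of 0.05 (limma): Psme2 lies farthest left in both panels at -1.43 and -1.37, and Psmc1 is the filled point right of 0 in both, at 0.56 and 0.43.

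Markers of proliferation also moved with dexamethasone: 3 of 6 were called lower in each genotype. Among all genes, 24.1% were called lower in the knockout-labelled cells and 18.2% in wild type. Their summed level was 58.5 to 81.8 FPKM in KO-dex against 107 to 211 FPKM in KO-vehicle libraries, and 52.4 to 86.1 FPKM in WT-dex against 125 to 260 FPKM in WT-vehicle libraries. Of the 10 macrophage markers, 4 were called higher and 5 lower in the knockout-labelled cells, and 3 higher and 6 lower in wild type. The shares of all genes called higher were 15% in the knockout-labelled cells and 11.9% in wild type. The part of either list in the fall of the proteasome genes was not tested. None of the 8 stromal markers tested was called in either dexamethasone comparison. Their sums varied widely within groups (3.38 to 434 FPKM in KO-vehicle libraries), so the lack of calls does not show equal stromal content. With a stromal score as a covariate, 32 members were lower in the knockout-labelled cells and 26 in wild type. Calls over all genes rose as well, to 28.5% lower in the knockout-labelled cells and 21.4% in wild type.

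Of the 45 members, the 11S gene Psme2 had the lowest log2 difference in each genotype. Psme2, the beta subunit of the interferon-induced activator, had 39.4, 36.5, 41.3 and 36.0 FPKM in KO-dex libraries, against 91.1, 119, 97.6 and 114 FPKM in KO-vehicle libraries. It had 32.0, 31.1, 37.4 and 32.9 FPKM in WT-dex libraries, against 85.3, 88.9, 80.9 and 96.2 FPKM in WT-vehicle libraries. All 8 dexamethasone libraries lay below all 8 vehicle libraries. The log2 difference was -1.43 ± 0.09 (SE; limma adjusted p = 3.49e-08) in the knockout-labelled cells and -1.37 ± 0.09 (adjusted p = 9.21e-08) in wild type.

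Psme1, the alpha subunit that joins PSME2 in the same ring, had 40.4, 41.2, 41.5 and 39.3 FPKM in KO-dex libraries, against 70.5, 81.6, 66.6 and 83.5 FPKM in KO-vehicle libraries. In wild type it had 31.7, 33.2, 39.2 and 35.2 FPKM with dexamethasone, against 67.7, 67.8, 59.4 and 72.8 FPKM with vehicle. Again no dexamethasone library reached a vehicle library, with log2 differences of -0.87 ± 0.085 (limma adjusted p = 2.32e-06) in the knockout-labelled cells and -0.92 ± 0.085 (adjusted p = 2.03e-06) in wild type. Summed, Psme1 and Psme2 stood at 43.6% of the vehicle mean in the knockout-labelled cells and 44.1% in wild type.

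Psme2b, a near-identical single-exon copy of Psme2 on chromosome 11, is annotated as protein coding. Its transcript matched Psme2 at 789 of 794 aligned bases, so reads of the pair may have been assigned to either, and the values of both are uncertain. Psme2b had 15.3, 15.3, 13.7 and 14.5 FPKM in KO-dex libraries, against 19.1, 21, 21.6 and 22.7 FPKM in KO-vehicle libraries, a log2 difference of -0.49 ± 0.071 (limma adjusted p = 8.93e-05). In WT-dex libraries it had 9.58, 11.4, 10.2 and 11.9 FPKM, against 16, 18, 17.2 and 16.6 FPKM in WT-vehicle libraries, a log2 difference of -0.61 ± 0.071 (adjusted p = 2.03e-05). These differences were closer to 0 than those of Psme2 in each genotype, and the gap between the genes was not tested. With both genes summed, the log2 difference was -1.23 in each genotype.

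Values of the other activators lay much closer to those with vehicle. Psme3, the nuclear 11S subunit that works without PSME1 and PSME2, had 24.2, 27.7, 25.1 and 26.7 FPKM in KO-dex libraries, against 30.0, 31.0, 28.0 and 29.9 FPKM in KO-vehicle libraries. It was called lower there by a narrow margin (log2 difference -0.19 ± 0.07, limma adjusted p = 0.0418). The call was lost without any of 9 libraries (KO-dex 1, 3 or 4, KO-vehicle 1, 2 or 4, WT-dex 1, WT-vehicle 1 or 2), with an adjusted p of up to 0.123. In wild type Psme3 had 30.1, 29.0, 32.2 and 26.2 FPKM with dexamethasone, against 28.8, 27.0, 26.0 and 30.7 FPKM with vehicle, and the groups overlapped (log2 difference 0.06, adjusted p = 0.562). Psme4, the PA200 activator linked to histone degradation, had log2 differences of 0.21 (adjusted p = 0.231) and 0.02 (adjusted p = 0.921) in the knockout-labelled and wild-type cells. The ratio of Psme1 to Psme3 was 1.57 ± 0.104 in KO-dex against 2.54 ± 0.208 in KO-vehicle libraries, and 1.19 ± 0.12 in WT-dex against 2.38 ± 0.0939 in WT-vehicle libraries (SD, n = 4 each).

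**Figure D2:**
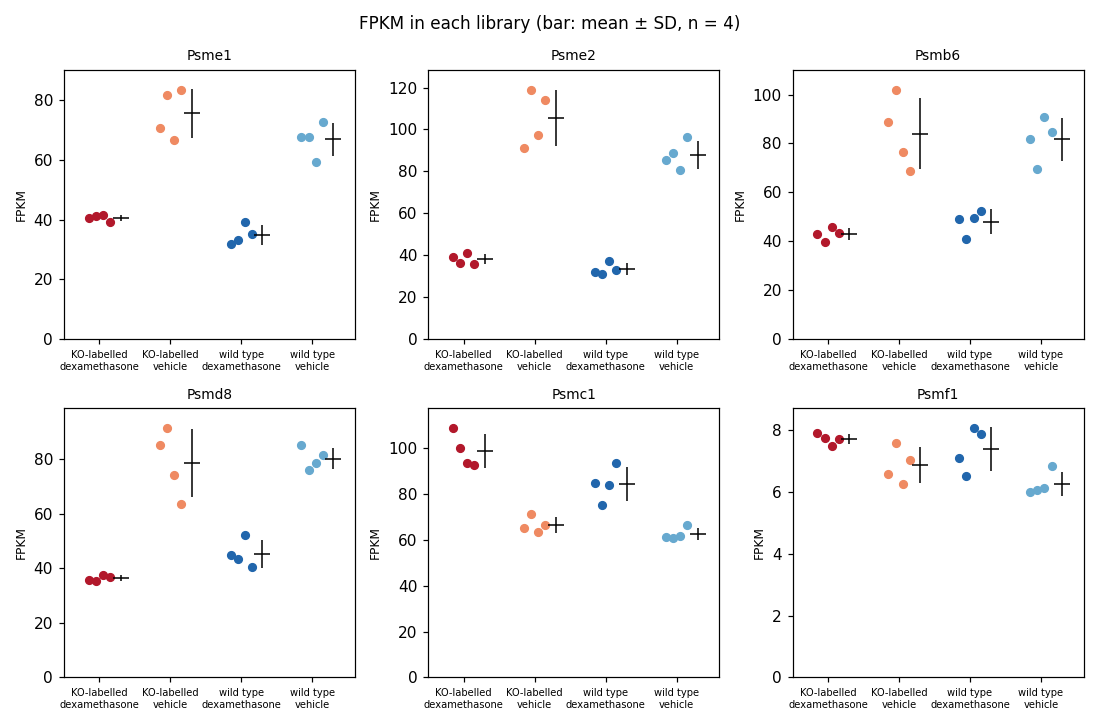
FPKM (vertical axis, from 0) of 6 members in each library of the 4 groups, with the group mean ± SD (n = 4). For Psme1, Psme2, Psmb6 and Psmd8 the dexamethasone libraries lie below the vehicle libraries of their genotype, for Psmc1 they lie above, and for Psmf1 they overlap.

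Of the core genes, the catalytic Psmb6 had the lowest log2 difference in each genotype. Psmb6, the caspase-like subunit, had 42.9, 39.9, 45.9 and 43.5 FPKM in KO-dex libraries, against 88.6, 102, 76.4 and 68.8 FPKM in KO-vehicle libraries. It had 49.2, 40.8, 49.4 and 52.6 FPKM in WT-dex libraries, against 81.7, 69.6, 90.7 and 84.7 FPKM in WT-vehicle libraries. All 8 dexamethasone libraries lay below all 8 vehicle libraries, and the log2 difference was -0.93 ± 0.116 (limma adjusted p = 2.18e-05) in the knockout-labelled cells and -0.75 ± 0.116 (adjusted p = 0.000212) in wild type. Psmb7, the trypsin-like subunit, fell by 0.38 and 0.35 on the log2 scale in the knockout-labelled and wild-type cells. It shares 11.8% of its exon bases with the opposite-strand gene Nek6, and without a stated strand setting their reads cannot be told apart.

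Psmb5, the chymotrypsin-like subunit that proteasome inhibitors target, is given by library because its values, once seen, set 1 library apart. It had 26.7, 23.3, 25.0 and 24.7 FPKM in KO-dex libraries, against 37.1, 49.3, 34.7 and 37.2 FPKM in KO-vehicle libraries, a log2 difference of -0.63 ± 0.141 (limma adjusted p = 0.00261). In wild type it had 29.1, 26.6, 42.8 and 26.5 FPKM with dexamethasone, against 42.2, 45.8, 36.3 and 37.2 FPKM with vehicle, and the groups overlapped through WT-dex 3. The wild-type difference of -0.38 ± 0.141 missed the threshold (adjusted p = 0.0555), and without WT-dex 3 it was -0.54 (adjusted p = 0.00292). Psmb5 matched the predicted gene Gm3375 at 787 of 796 aligned bases, and Gm3375 was listed at a mean of 36.1 FPKM, so the values of both are uncertain. Summed with Gm3375, the wild-type difference was -0.29 (adjusted p = 0.0399). The 3 catalytic subunits summed to 57.4% of the vehicle mean in the knockout-labelled cells and to 66.3% in wild type.

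The other beta subunits shape the inner ring without an active site. In the knockout-labelled cells all 4 were called lower, by 0.20 (Psmb1) to 0.39 (Psmb2) on the log2 scale, and in wild type Psmb2 and Psmb4 were. Of all genes, 24.1% were called lower in the knockout-labelled cells and 18.2% in wild type. Psmb2 had 48.1, 47.3, 49.1 and 44.1 FPKM in KO-dex against 60.8, 62.1, 62.3 and 63.7 FPKM in KO-vehicle libraries, and 42.0, 44.3, 44.1 and 41.6 FPKM in WT-dex against 55.1, 56.3, 53.3 and 55.4 FPKM in WT-vehicle libraries. Its spread was narrow, with log2 differences of -0.39 ± 0.046 (limma adjusted p = 1.38e-05) and -0.35 ± 0.046 (adjusted p = 6.31e-05). Psmb4 had 58.4, 59.5, 63.3 and 58.1 FPKM in KO-dex against 75.9, 79.7, 69.7 and 78.2 FPKM in KO-vehicle libraries, where the groups did not overlap (log2 difference -0.34 ± 0.069, adjusted p = 0.00144). In wild type Psmb4 had 64.7, 57.9, 69.2 and 57.1 FPKM with dexamethasone against 74.5, 71.3, 68.0 and 76.6 FPKM with vehicle, which overlapped. That call (adjusted p = 0.0243) was lost without WT-dex 2 or 4 or WT-vehicle 1 or 4, with an adjusted p of up to 0.0695. Psmb1 in the knockout-labelled cells lost its call without KO-dex 1 or 4 or KO-vehicle 1, 2 or 4 (adjusted p of up to 0.07), and Psmb3 was called in the knockout-labelled cells (-0.35) but not in wild type (-0.16, adjusted p = 0.18).

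Of the 7 alpha ring genes, 5 fell in the knockout-labelled cells (71.4%, against 24.1% of all genes) and 6 in wild type (85.7%, against 18.2%). Psma2, Psma3, Psma4, Psma5 and Psma7 were called in both. Their log2 differences ran from -0.42 (Psma3) to -0.33 (Psma7) in the knockout-labelled cells and from -0.46 (Psma4) to -0.19 (Psma7) in wild type. Psma1 fell by 0.34 in wild type (limma adjusted p = 0.00937), while its -0.22 in the knockout-labelled cells missed the threshold (adjusted p = 0.0615). In wild type the call of Psma7 was lost without WT-dex 1 or 2 (adjusted p of up to 0.0577), and that of Psma5 without KO-dex 1, 2 or 3, WT-dex 2 or 4, or WT-vehicle 3 or 4 (up to 0.117). Psma6, the alpha ring gene with the highest level, had 78.6, 71.7, 78.8 and 71.9 FPKM in KO-dex against 78.1, 78.0, 83.7 and 81.4 FPKM in KO-vehicle libraries. It had 67.2, 70.0, 71.3 and 72.3 FPKM in WT-dex against 68.9, 64.9, 77.4 and 78.4 FPKM in WT-vehicle libraries. Groups overlapped in each genotype, and neither difference passed (-0.09, adjusted p = 0.276; -0.04, adjusted p = 0.676).

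Summed over the 14 core subunits, the level was 476 ± 14 FPKM in KO-dex against 630 ± 17.2 FPKM in KO-vehicle libraries, and 478 ± 26.8 FPKM in WT-dex against 592 ± 26.2 FPKM in WT-vehicle libraries (SD, n = 4 each). In neither genotype did the sums of a dexamethasone library reach those of a vehicle library. The beta ring sum stood at 69.9% and 77.4% of the vehicle mean in the knockout-labelled and wild-type cells, and the alpha ring sum at 82.3% and 84.9%.

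**Figure D3:**
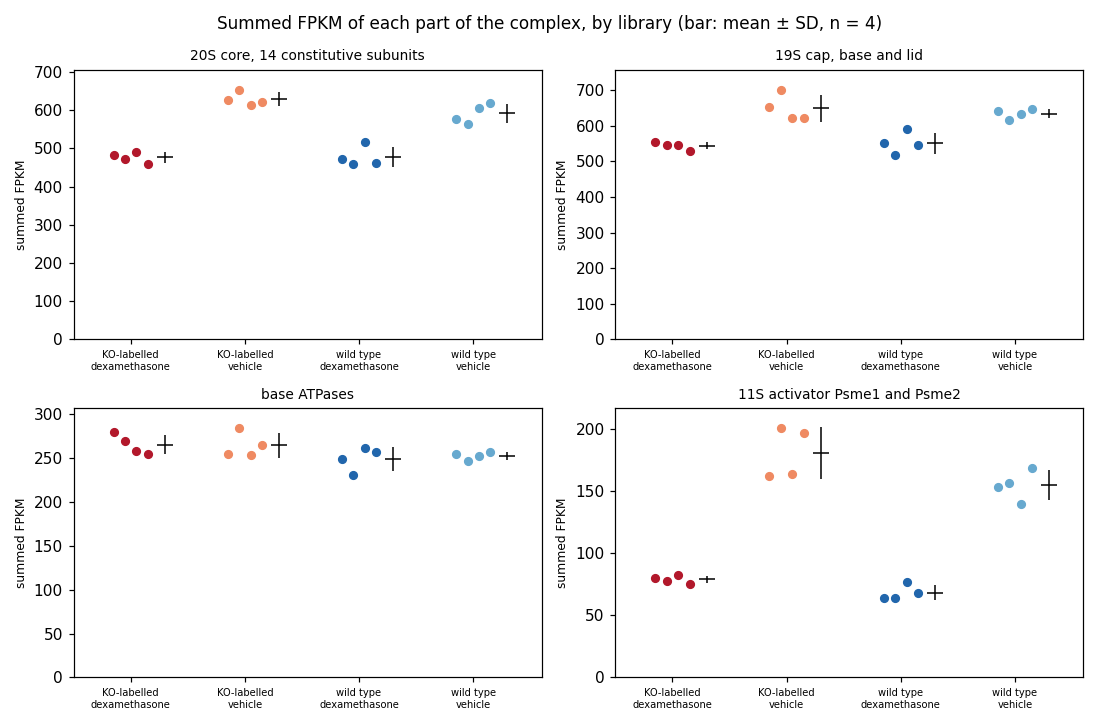
Summed FPKM (vertical axis, from 0) of the 14 core subunits, the 17 cap subunits, the 6 base ATPases and the Psme1 and Psme2 pair, in each library of the 4 groups, with the group mean ± SD (n = 4). Core, cap and 11S sums are lower in the dexamethasone libraries of each genotype, while the base ATPase sums overlap between groups (means of 265, 264, 249 and 252 FPKM). The ATPase and cap sums include Psmc1, which rose with dexamethasone in both genotypes.

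The 19S lid holds the deubiquitinase PSMD14 and its scaffold. Of its genes, 7 of 8 fell in the knockout-labelled cells (87.5%, against 24.1% of all genes) and 5 of 8 in wild type (62.5%, against 18.2%). Psmd8, a scaffold subunit, was the lid gene with the highest level and the steepest fall. It had 35.8, 35.3, 37.7 and 36.7 FPKM in KO-dex libraries, against 85.1, 91.5, 74.4 and 63.5 FPKM in KO-vehicle libraries, a log2 difference of -1.08 ± 0.099 (limma adjusted p = 1.34e-06). In wild type it had 44.9, 43.4, 52.2 and 40.4 FPKM with dexamethasone, against 85.2, 76.0, 78.5 and 81.4 FPKM with vehicle, a difference of -0.82 ± 0.099 (adjusted p = 2.72e-05). Every dexamethasone library lay below every vehicle library.

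Psmd14, the deubiquitinase itself, fell by 0.45 in the knockout-labelled cells (limma adjusted p = 0.00169) and by 0.61 in wild type (adjusted p = 0.000231). The scaffold gene Psmd12 fell by 0.34 in each genotype. Psmd7, the catalytically inactive partner of PSMD14, had 26.0, 24.9, 25.0 and 25.8 FPKM in KO-dex libraries, against 34.5, 36.7, 32.8 and 35.1 FPKM in KO-vehicle libraries, with no overlap. In wild type it had 32.9, 29.6, 34.7 and 29.6 FPKM with dexamethasone, against 34.6, 35.9, 33.2 and 37.0 FPKM with vehicle, which overlapped. Its log2 difference was -0.44 ± 0.059 (adjusted p = 5.13e-05) in the knockout-labelled cells and -0.15 ± 0.059 (adjusted p = 0.0776) in wild type.

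Among the other scaffold genes, Psmd11 fell by 0.20 (limma adjusted p = 0.00789) and Psmd3 by 0.29 (adjusted p = 0.0194) in the knockout-labelled cells. Neither was called in wild type, and Psmd3 lost its call without KO-dex 1 or KO-vehicle 2 (up to 0.0632). Psmd13 fell by 0.33 in the knockout-labelled cells, and its -0.20 in wild type lost the call without WT-dex 1 or 2 or WT-vehicle 1, 3 or 4 (up to 0.0833). It shares 10.1% of its exon bases with the opposite-strand gene Sirt3. Psmd6 had 23.2, 22.2, 24.7 and 22.4 FPKM in KO-dex against 23.7, 22.2, 21.9 and 22.6 FPKM in KO-vehicle libraries, which overlapped (log2 difference 0.03 ± 0.054, adjusted p = 0.688). It had 21.4, 22.0, 21.3 and 19.9 FPKM in WT-dex against 22.2, 25.1, 24.6 and 23.6 FPKM in WT-vehicle libraries, which did not overlap (-0.16 ± 0.054, adjusted p = 0.0317). The wild-type call was lost without WT-dex 1, 3 or 4 or WT-vehicle 2, 3 or 4 (up to 0.0914). The lid sum stood at 69.6% of the vehicle mean in the knockout-labelled cells and 75.9% in wild type.

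In the base, Psmd2, a scaffold and receptor for ubiquitin-like domains, had 57.2, 61.2, 62.6 and 62.7 FPKM in KO-dex libraries, against 89.6, 95.9, 81.5 and 77.9 FPKM in KO-vehicle libraries. In wild type it had 68.9, 64.9, 72.4 and 67 FPKM with dexamethasone, against 83.0, 75.6, 83.8 and 86.7 FPKM with vehicle. Both pairs of groups were apart, with log2 differences of -0.49 ± 0.069 (limma adjusted p = 6.94e-05) and -0.26 ± 0.069 (adjusted p = 0.0099). Psmd1, the other large scaffold, fell by 0.47 and 0.37. Psmd4, a ubiquitin receptor, was called in neither (-0.04, adjusted p = 0.669; -0.07, adjusted p = 0.453).

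The base ATPases, the unfolding motor, did not move as a group. Psmc1 was the 1 member that rose in both genotypes. It had 109, 100.0, 93.7 and 92.8 FPKM in KO-dex libraries, against 65.1, 71.2, 63.5 and 66.7 FPKM in KO-vehicle libraries, a log2 difference of 0.56 ± 0.071 (limma adjusted p = 2.69e-05). In WT-dex libraries it had 85.0, 75.3, 84.2 and 93.7 FPKM, against 61.2, 60.7, 61.7 and 66.4 FPKM in WT-vehicle libraries, a difference of 0.43 ± 0.071 (adjusted p = 0.000438). All 8 dexamethasone libraries were higher than all 8 vehicle libraries, and both calls held under every alternative run. With a mean of 78.2 FPKM over the 16 libraries, Psmc1 had the highest level of the 45 members. This rank takes in its rise and did not hold with vehicle alone. There Psmc1 averaged 66.6 FPKM in KO-vehicle and 62.5 FPKM in WT-vehicle libraries, below several members such as Psme2 (105 and 87.8 FPKM).

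Psmc3 fell by 0.30 and 0.29 on the log2 scale in the knockout-labelled and wild-type cells. Psmc4 (-0.35, limma adjusted p = 0.00101) and Psmc5 (-0.29, adjusted p = 0.00725) were called lower in the knockout-labelled cells and not in wild type. Psmc2 was called lower in wild type (-0.22, adjusted p = 0.00385), against -0.11 (adjusted p = 0.0835) in the knockout-labelled cells. Psmc6 was called in neither and had a wide spread (0.31 ± 0.179 in the knockout-labelled and -0.15 ± 0.179 in the wild-type cells). The ATPase sum was 265 ± 11.4 FPKM in KO-dex against 264 ± 14.2 FPKM in KO-vehicle libraries, and 249 ± 13.6 FPKM in WT-dex against 252 ± 4.45 FPKM in WT-vehicle libraries (SD, n = 4 each). This sum adds the rise of Psmc1 to the falls of other ATPases. Of the 6, 3 were called lower in the knockout-labelled cells (50%, against 24.1% of all genes) and 2 in wild type (33.3%, against 18.2%). The sum was not computed without Psmc1. The level of Psmc1 per level of Psmc3, another ATPase, was 2.22 ± 0.168 in KO-dex against 1.21 ± 0.041 in KO-vehicle libraries, and 1.84 ± 0.231 in WT-dex against 1.10 ± 0.0716 in WT-vehicle libraries.

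The whole cap of 17 genes summed to 544 ± 10.2 FPKM in KO-dex against 650 ± 37.4 FPKM in KO-vehicle libraries, or 83.8%, and to 552 ± 29.7 FPKM in WT-dex against 635 ± 13.2 FPKM in WT-vehicle libraries, or 86.9%. The core sum per cap sum was 0.876 ± 0.0174 in KO-dex against 0.97 ± 0.0292 in KO-vehicle libraries, and 0.867 ± 0.0176 in WT-dex against 0.932 ± 0.0296 in WT-vehicle libraries. The cap sum includes Psmc1, at a mean of 99.0 FPKM in KO-dex against 66.6 FPKM in KO-vehicle libraries. In wild type Psmc1 averaged 84.6 FPKM with dexamethasone against 62.5 FPKM with vehicle. The core per cap ratio takes in this rise and was not computed without Psmc1. The 11S sum per core sum was 0.166 ± 0.00208 in KO-dex against 0.287 ± 0.0295 in KO-vehicle libraries, and 0.143 ± 0.00634 in WT-dex against 0.262 ± 0.021 in WT-vehicle libraries (SD, n = 4 each). In each genotype neither ratio overlapped between dexamethasone and vehicle.

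To set the promoter of the riser beside those of the steepest core and cap falls, the bases upstream of Psmc1, Psmb6 and Psmd8 are shown, 5′ to 3′ on the strand of the gene, from the RefSeq promoter table on GRCm38.p6. They span chr12:100109952-100110153 (plus strand), chr11:70525107-70525356 (plus strand) and chr7:29180702-29180923 (minus strand). Bases that GENCODE M21 places inside the gene, 48 for Psmc1 and 28 for Psmd8, were left off. Capitals mark matches to any of 6 patterns.
Psmc1: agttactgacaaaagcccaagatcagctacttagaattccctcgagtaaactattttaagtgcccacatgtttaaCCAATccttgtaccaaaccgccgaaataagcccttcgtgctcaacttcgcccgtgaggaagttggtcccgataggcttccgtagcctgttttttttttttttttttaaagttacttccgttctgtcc
Psmb6: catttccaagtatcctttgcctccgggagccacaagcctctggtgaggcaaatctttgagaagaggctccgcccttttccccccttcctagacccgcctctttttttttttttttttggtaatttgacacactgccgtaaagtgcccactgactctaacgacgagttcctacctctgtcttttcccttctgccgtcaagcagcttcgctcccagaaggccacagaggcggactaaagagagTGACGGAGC
Psmd8: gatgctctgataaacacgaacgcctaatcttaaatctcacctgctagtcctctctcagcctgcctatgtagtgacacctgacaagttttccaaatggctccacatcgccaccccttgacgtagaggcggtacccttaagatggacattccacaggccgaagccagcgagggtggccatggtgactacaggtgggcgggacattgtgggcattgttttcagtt

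The 6 patterns, searched on both strands, were TGACNNNGC (core of the antioxidant response element bound by NRF1 and NRF2), GAAA, NN and GAAA in a row (interferon-stimulated response element), GNACA, NNN and TGTNC in a row (glucocorticoid receptor), TGTTTAC (forkhead), CCAAT (NF-Y) and CCGGAAG (ETS). In the stretch shown, Psmc1 holds CCAAT, which begins 175 bases before the RefSeq start, and Psmb6 holds TGACGGAGC, which begins 9 bases before it. A reverse ETS match of Psmc1 begins 28 bases before its RefSeq start, in the bases left off. Psmd8 holds none of the 6. Over the 250 bases upstream of each RefSeq start, 38 members were in the table with 27025 genes in all. TGACNNNGC was in 5 of the 38 members (13.2%, against 11.5% of all genes), the interferon pattern in 3 (7.89%, against 3.46%) and the receptor pattern in 1, Psme2b (2.63%, against 0.44%). TGTTTAC was in 0 (against 3.54%), CCAAT in 13 (34.2%, against 37.5%) and CCGGAAG in 13 (34.2%, against 7.83%). Of 3 further patterns counted, GACNNNGC, a shorter form that holds every TGACNNNGC, was in 14 (36.8%, against 39% of all genes), GCGGAAG, another ETS form, in 6 (15.8%, against 5.08%) and TGAGTCA (AP-1) in 1 (2.63%, against 5.16%). The 27025 genes were not filtered for expression, while the members were, so these shares compare unlike sets of genes. These counts describe letters in a window and not sites in use.

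The inhibitor PSMF1, which binds the core and competes with its activators, was among the members that did not fall. Psmf1 had 7.89, 7.75, 7.50 and 7.70 FPKM in KO-dex against 6.58, 7.59, 6.24 and 7.02 FPKM in KO-vehicle libraries, which overlapped (log2 difference 0.15 ± 0.069, limma adjusted p = 0.0979). It had 7.11, 6.51, 8.07 and 7.87 FPKM in WT-dex against 6, 6.05, 6.12 and 6.84 FPKM in WT-vehicle libraries, which also overlapped and was called higher (0.21 ± 0.069, adjusted p = 0.0343). The call was lost without WT-dex 3 or 4 or WT-vehicle 1, 2 or 3, with an adjusted p of up to 0.0987.

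The assembly chaperones were split. Psmd10 (gankyrin), which helps to build the base, had 15.2, 14.8, 15.5 and 14.8 FPKM in KO-dex against 19.8, 19.8, 19.8 and 18.6 FPKM in KO-vehicle libraries, and 11.8, 12.7, 14.2 and 12 FPKM in WT-dex against 15.6, 15.2, 20.1 and 20.2 FPKM in WT-vehicle libraries. In neither genotype did dexamethasone and vehicle libraries overlap, and it fell by 0.35 (limma adjusted p = 0.0051) and 0.45 (adjusted p = 0.00128). Psmd9, another base chaperone, was called lower in the knockout-labelled cells (-0.27, adjusted p = 0.0172), which was lost without KO-vehicle 2 (0.0624). Psmd5, the base chaperone of the same step, was called in neither (0.03, adjusted p = 0.68; -0.02, adjusted p = 0.813).

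Psmg4, which helps alpha subunits into a ring, had 24.5, 23.3, 25.7 and 21.6 FPKM in KO-dex against 31.4, 35.0, 28.6 and 32.5 FPKM in KO-vehicle libraries, and 20.4, 20.8, 24.7 and 22.5 FPKM in WT-dex against 34.5, 29.7, 27.7 and 30.6 FPKM in WT-vehicle libraries. It fell without overlap by 0.41 (limma adjusted p = 0.00146) and 0.45 (adjusted p = 0.000911). Psmg3, with which PSMG4 forms a dimer, had 1.99, 2.16, 2.12 and 1.90 FPKM in KO-dex against 2.87, 2.44, 2.15 and 2.22 FPKM in KO-vehicle libraries, and 1.81, 2.10, 2.23 and 1.77 FPKM in WT-dex against 2.86, 2.15, 2.14 and 2.12 FPKM in WT-vehicle libraries. Groups overlapped in each genotype, and neither it nor Psmg1 and Psmg2, which encode the other chaperone dimer of the alpha ring, passed the test. Psmc3ip, the name match, had 2.54, 4.33, 3.15 and 3.6 FPKM in KO-dex against 3.26, 3.39, 4.62 and 3.96 FPKM in KO-vehicle libraries, and 3.14, 3.35, 3.37 and 2.95 FPKM in WT-dex against 3.29, 3.98, 3.82 and 3.84 FPKM in WT-vehicle libraries. Groups overlapped in each genotype, it was not called, and it shares 21.2% of its exon bases with Mlx on the other strand.

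Few members passed between the genotypes without dexamethasone. Comparing KO-vehicle with WT-vehicle libraries, 2 members were called higher, or 4.44%, and 0 lower. Near this share, 3.37% of all genes were called higher, and 1.3% were called lower (4.68% in either direction). Over all genes, 72.1% of these calls were higher, against 60.4% under median-ratio scaling, 61.6% under quantile normalization and 57.5% with the reads scaled to their totals. Groups did not overlap for 3 members higher (6.67%) and 0 lower, where 7.66% of all genes were higher and 2.97% lower without overlap. At an unadjusted limma p under 0.05, a level not counted over all genes, there were 5 higher and 0 lower, and voom on the recovered reads also called 0 lower. The 2 were Psme2b (log2 difference 0.30 ± 0.071, limma adjusted p = 0.0276) and Psmb2 (0.17 ± 0.046, adjusted p = 0.0454), each without overlap in the values given above. Psme2b lost its call without KO-vehicle 2 or 3 or WT-vehicle 1 or 4, with an adjusted p of up to 0.0957. Psmb2 lost it without any of 12 libraries, namely all but KO-dex 4, WT-dex 2, WT-dex 4 and WT-vehicle 3, and under 7 of 11 other settings, with an adjusted p of up to 0.112 when a library was left out. Psme2 had a log2 difference of 0.26 ± 0.09 (adjusted p = 0.122), with overlap.

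Under dexamethasone, 6 members were higher and 2 lower in KO-dex than in WT-dex libraries, or 13.3% higher and 4.44% lower, where 14.3% of all genes were called higher and 12.4% lower (26.7% in either direction). The share higher was thus near that of all genes. Over all genes, 53.7% of the calls were higher, against 68% with the reads scaled to their totals and 47.1% under median-ratio scaling. Under median-ratio scaling 4 members were called higher and 5 lower, where 12.9% of all genes were called higher and 14.4% lower. Groups did not overlap for 8 members higher (17.8%) and 6 lower (13.3%), where 16.3% of all genes were higher and 10.2% lower without overlap. Higher were the core genes Psma1 (0.28 ± 0.087, limma adjusted p = 0.033) and Psma4 (0.21 ± 0.066, adjusted p = 0.033), the base ATPases Psmc1 (0.23 ± 0.071, adjusted p = 0.0329), Psmc2 and Psmc6 (0.51 ± 0.179, adjusted p = 0.0468), and Psme2b. Psme2b differed by 0.42 ± 0.071 (adjusted p = 0.0014) and kept its call under every alternative run. Psmc2 had 20.0, 18.3, 18.6 and 17.3 FPKM in KO-dex against 15.5, 15.9, 15.9 and 15.8 FPKM in WT-dex libraries, with no overlap (0.22 ± 0.05, adjusted p = 0.00753). Vehicle values of Psmc2 were 20.6, 20.3, 20.7 and 19 FPKM in KO-vehicle and 17.8, 18.8, 19.4 and 18.3 FPKM in WT-vehicle libraries, which overlapped (0.11 ± 0.05, adjusted p = 0.214).

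Lower were 2 lid genes, Psmd7 (-0.31 ± 0.059, limma adjusted p = 0.00317) and Psmd8 (-0.30 ± 0.099, adjusted p = 0.038), both without overlap. Psme2 was not called (0.20, adjusted p = 0.116), but was with Psme2b summed into it (0.26, adjusted p = 0.0261). Leaving out 1 library ended 5 of the 8 calls. Psma1 lost its call without KO-dex 1, 2 or 3 or WT-dex 1 or 3 (adjusted p of up to 0.108), Psma4 without KO-dex 1, 2 or 3 or WT-dex 1, 3 or 4 (up to 0.0808), and Psmc1 without KO-dex 1 or 2 or WT-dex 1, 2 or 3 (up to 0.106). Psmd8 lost it without any KO-dex library or WT-dex 1, 2 or 3 (up to 0.124), and Psmc6 without any KO-dex library, KO-vehicle 1, WT-dex 1 or 3, or WT-vehicle 2 or 4 (up to 0.155). Stromal markers moved with this comparison, 7 of the 8 tested being called lower in KO-dex libraries, and 6 of 10 macrophage markers were called higher. Over all genes, 12.4% were called lower and 14.3% higher. The macrophage markers summed to 14400 to 17200 FPKM in KO-dex and 10600 to 14200 FPKM in WT-dex libraries. The stromal markers summed to 7.51 to 99.9 FPKM in KO-dex and 74 to 1220 FPKM in WT-dex libraries. Stromal level and genotype label thus largely went together. Their parts in these calls, and in the next values, cannot be told apart. The part of the macrophage markers was not tested. With the stromal score as a covariate, 1 member was called higher, Psme2b, and 0 lower. Over all genes, 4.09% were then called higher and 4.27% lower. Without the 3 libraries that lay apart in Col1a1 (WT-vehicle 3, WT-dex 4 and KO-vehicle 4), 8 were higher and 4 lower. Of all genes, 25.5% were higher and 18.8% lower in that setting.

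**Figure D4:**
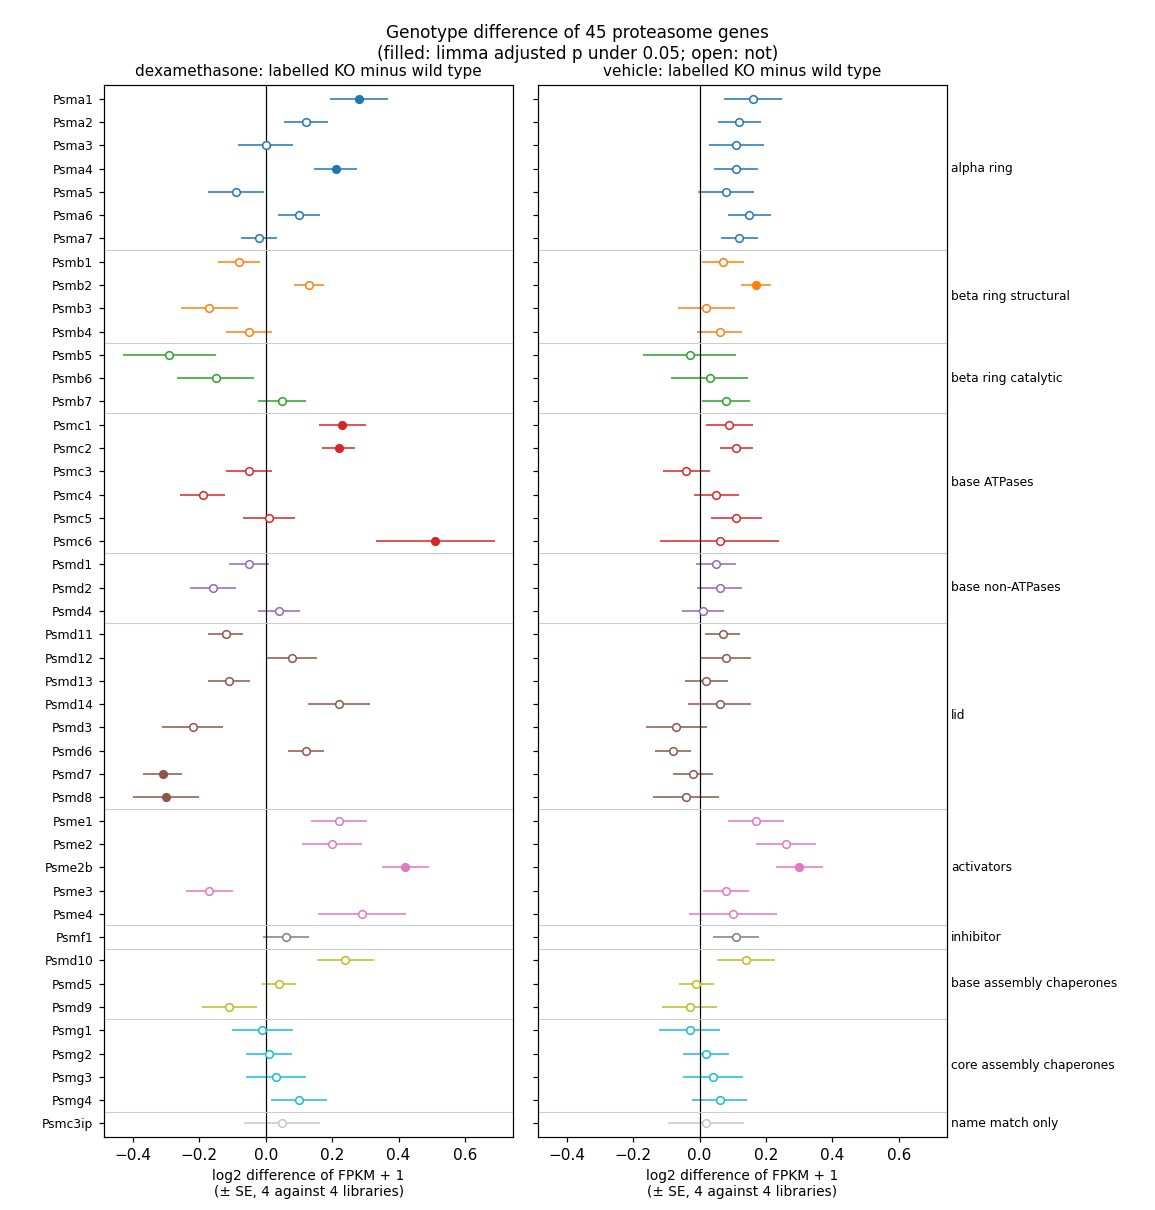
Log2 difference of FPKM + 1, knockout-labelled minus wild type (horizontal axis, ± SE), for each of the 45 members by role, with dexamethasone (left) and with vehicle (right). Filled points passed an adjusted p of 0.05 (limma): 8 under dexamethasone, with Psmc6 at 0.51 and Psmd7 at -0.31, and 2 with vehicle, Psme2b at 0.30 and Psmb2 at 0.17.

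No member was called in the test of the difference between the 2 dexamethasone responses, where 0.129% of all genes, 15 in number, passed (0.0601% higher and 0.0686% lower). At an unadjusted limma p under 0.05, a level not counted over all genes, there were 6 members. For 5 of them the knockout-labelled response minus the wild-type response was below 0, and for 1 it was above. Voom on the recovered reads called 0 members. The smallest adjusted p belonged to Psmd7 (difference of the responses -0.29, adjusted p = 0.2), Psmd6 (0.20, adjusted p = 0.322) and Psme3 (-0.25, adjusted p = 0.334). The 10 members called lower in the knockout-labelled cells alone are therefore not shown to respond differently by genotype.

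Genes that work with the proteasome but carry other names were read from the same fit, from lists of partners. Of 11 tested, 4 fell in the knockout-labelled cells (36.4%, against 24.1% of all genes) and 3 in wild type (27.3%, against 18.2%), and 0 rose. Pomp, the maturation factor of the core, had 14.1, 13.5, 14.4 and 12.7 FPKM in KO-dex against 23.2, 23.7, 21.8 and 21.3 FPKM in KO-vehicle libraries, and 11.3, 11.3, 12.4 and 11.8 FPKM in WT-dex against 20.6, 20.5, 21.5 and 21.9 FPKM in WT-vehicle libraries. It fell without overlap by 0.68 (limma adjusted p = 3.31e-07) and 0.80 (adjusted p = 1.21e-07). Sem1, the small lid subunit, fell by 0.40 and 0.34. The cap-bound ubiquitin receptor Adrm1 fell by 0.21 in the knockout-labelled cells (adjusted p = 0.014), against -0.01 in wild type (adjusted p = 0.941).

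Of 10 genes on the route of NRF1 (Nfe2l1), the factor known to raise proteasome genes when the proteasome is short, 3 rose and 4 fell in the knockout-labelled cells, and 4 rose and 3 fell in wild type. Over all genes, 15% rose and 24.1% fell in the knockout-labelled cells, and 11.9% rose and 18.2% fell in wild type. Nfe2l1 itself fell by 0.54 (limma adjusted p = 0.000107) and 0.26 (adjusted p = 0.0242). Vcp, the ATPase that extracts NRF1 from the endoplasmic reticulum, fell by 0.53 and 0.28, and Nfe2l2, its relative NRF2, by 0.67 and 0.60. Ddi2, the protease that cleaves NRF1, rose by 0.32 and 0.36, and Ngly1, which removes its sugars, by 0.42 and 0.28. Among 12 ubiquitin genes and shuttle factors, 3 fell in the knockout-labelled cells (25%, near the 24.1% of all genes), and 0 were called in wild type (lowest adjusted p, Ubqln1, 0.0575).

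The immunoproteasome subunits, which replace the catalytic beta subunits, all fell in both genotypes. Their sum was 104 ± 6.37 FPKM in KO-dex against 176 ± 29.8 FPKM in KO-vehicle libraries, and 78.6 ± 10.4 FPKM in WT-dex against 159 ± 27.6 FPKM in WT-vehicle libraries. Per constitutive catalytic level, this was 1.29 ± 0.0474 in KO-dex against 1.28 ± 0.303 in KO-vehicle libraries, and 0.867 ± 0.101 in WT-dex against 1.16 ± 0.213 in WT-vehicle libraries (SD, n = 4 each), and the ranges overlapped in both genotypes.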

How the data were processed

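RNA was measured in 16 libraries, 4 in each of 4 groups taken from the labels. The authors deposited FPKM values, 1 table per library with 54532 gene identifiers. Per the submitters' processing notes, the builds were GRCm38 and mm10 and the tools DESeq2, HTSeq 0.6.1, TopHat2 2.0.12 and Bowtie2 2.2.3. Not given in the sources used here are what each tool did, whether strand was counted and which annotation was used. Names and exon lengths came from GENCODE M21, which held 54495 identifiers.

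FPKM is not a count, so log2(FPKM + 1) was tested. The pseudocount of 1 FPKM shrinks differences of weakly expressed genes. Genes reaching 1 FPKM in 4 or more libraries entered 1 fit of the 4 groups in limma 3.58.1 (trend, moderated variance; R 4.3.3). P-values were two-sided and Benjamini-Hochberg adjusted over all 11654 genes in each of 5 comparisons, at 0.05. Foxo3 was compared by an exact permutation test. From 96.3% to 96.7% of positive values per library were whole reads within 0.05, by the value of 1 read at each gene's exon length. The reads recovered in this way went into limma voom as alternatives. Near copies were found with BLAST 2.17.0 among GENCODE transcripts, and promoters came from RefSeq on GRCm38.p6. Other steps used Python 3.11.15, pandas 2.3.3 and matplotlib 3.10.9.

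Results for some withheld genes are not reported here. The members, gene lists, motifs and role classes were chosen with earlier results of these data known. Values by library are given for the 3 members with the smallest adjusted p in each comparison, the member with the highest level in each role class, and those nearest the limit on low values. Alternatives changed the pseudocount, filter, scaling, library weights, groups in the fit, replicate block, stromal covariate and libraries. Chosen after seeing the data were voom under 2 scalings, near copies summed, and the counts without 4 members (Psme2, Psme2b, Psmb5 and Psmc3ip).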

Additional observations from a re-analysis of the deposited data

Results flagged for a closer look

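Of the 180 pairs of a member and a group, 5 held a library far from the other 3 of its group. Chance flags about 1 in 20 such groups, so 5 is within what chance gives. The Psmb5 value of 42.8 FPKM in WT-dex 3 lay above the other 3 libraries, at 26.5 to 29.1 FPKM, and decided whether its wild-type fall passed. Psmd12 in KO-dex 4 was at 15.7 FPKM, against 18.4 to 18.9 FPKM in the others. Psmd10 in KO-vehicle 4 was at 18.6 FPKM, against 19.8 FPKM in the others. Psmg3 in WT-vehicle 1 was at 2.86 FPKM, against 2.12 to 2.15 FPKM. Psmf1 in WT-vehicle 4 was at 6.84 FPKM, against 6 to 6.12 FPKM.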

How the results depend on the processing

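Of the 32 members called for dexamethasone in the knockout-labelled cells, 28 kept the call whichever library was left out and 17 kept it under every alternative; in wild type these were 20 and 15 of 26. With 1 library left out, members called lower numbered 27 to 32 in the knockout-labelled cells and 20 to 27 in wild type, and members called higher 1 to 2 in each. Calls over all genes then ran from 3761 to 4835 and from 2898 to 3656. For the genotype comparison with vehicle they ran from 278 to 1623, with 0 to 3 members higher. Under dexamethasone they ran from 1517 to 4070, with 2 to 9 members higher and 1 to 4 lower, and for the difference of responses from 2 to 330. Differences of Foxo3 ran from -1.53 to -0.385 FPKM with vehicle and from 0.71 to 1.88 FPKM with dexamethasone.

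For dexamethasone in the knockout-labelled cells, members called higher were 2 under median-ratio scaling, quantile normalization and library weights. The shares of all genes called higher were 19.1%, 17.7% and 21.1%. Voom on reads scaled to their totals gave 6 higher and 16 lower, where 28.2% of all genes were called higher and 14.8% lower. In wild type, 1 was higher with no filter, only the compared groups, the replicate block, and without the 3 libraries apart in Col1a1. The shares of all genes called higher were 5.04%, 8.02%, 10.3% and 13.1%, in that order. For the genotype with vehicle, calls over all genes were 4840 with library weights, 244 with only the compared groups and 3958 without the 3 libraries, against 545. Members called higher there were 0 under median-ratio scaling, quantile normalization, only the compared groups, the stromal covariate and voom on totals, 1 under the replicate block, voom on the FPKM denominators and without the members that share reads, 6 without the 3 libraries, and 11 with library weights. Of all genes, 21% were called higher without the 3 libraries and 26.5% with library weights. Under the other settings named, 1.42% to 3.37% were.

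Under dexamethasone, genotype calls over all genes were 6388 with library weights, 975 with the stromal covariate and 5158 without the 3 libraries, against 3114. Members called higher were 10 with library weights and 1 with the stromal covariate, where 30.9% and 4.09% of all genes were called higher. Members called lower were 1 with no filter and with the replicate block, 5 under median-ratio scaling, 4 under quantile normalization, 10 with library weights, 0 with the stromal covariate and 4 without the 3 libraries. The shares of all genes called lower were 4.68%, 8.05%, 14.4%, 12.3%, 23.9%, 4.27% and 18.8%, in that order. For the difference of responses, calls over all genes were 6 with no filter, 1391 with library weights, 1 with the replicate block, 107 with the stromal covariate, 725 without the 3 libraries, 7 with voom on totals and 4 with voom on the FPKM denominators, against 15. Library weights also called 5 members lower in it, where 7.28% of all genes were called lower. Psmb5 between genotypes with vehicle was 0.040 with Gm3375 summed, against -0.03, neither called. The cause of these changes was not tested.

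Same-numbered libraries were not alike throughout: 8 of 24 same-numbered pairs had a correlation over 0.1 (range -0.763 to 0.732). Of the 16 libraries, 5 correlated best with one of their own number. Stromal marker levels also varied within groups, so this check cannot tell if a number marks a shared mouse or day. With the replicate block, 30 members were lower in the knockout-labelled cells and 20 in wild type, where 21.9% and 16% of all genes were. With 4 libraries a group and 81 reads at the lowest member value, small differences of the low members may go undetected.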
